A study of Mus musculus with 10 samples.

Results

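The myosin heavy and light chain isoforms of the heart were followed in right atrial RNA from mice labelled control or Tbx5 mutant. The set held 10 of the 23337 genes in the count table, taken by gene name. Members were the heavy chains Myh6, Myh7 and Myh7b, the essential light chains Myl1, Myl3 and Myl4, the regulatory light chains Myl2, Myl7 and Myl9, and the kinase Mylk3. All 10 members passed the filter on low counts and were among the 13084 genes tested.

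A myosin motor of striated muscle is built of heavy chains that carry the ATPase head, each bound by an essential and a regulatory light chain. Among the heavy chains, Myh6 encodes the fast alpha chain and Myh7 the slower beta chain. Atrial and ventricular muscle of the adult mouse use different light chain genes: Myl4 and Myl7 are the atrial light chains, and Myl3 and Myl2 their ventricular counterparts. Phosphorylation of the regulatory chain by Mylk3, the cardiac myosin light chain kinase, tunes contraction.

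The control group held 4 libraries, labelled M1 and M2 (male) and F1 and F2 (female), and the mutant group held 6, labelled F1 to F3 and M1 to M3. In the mutant, exon 3 of Tbx5, a T-box transcription factor of the atria, was removed in adult mice by a tamoxifen-activated Cre recombinase expressed from the ubiquitous R26 promoter, so that removal was not restricted to cardiomyocytes. Tamoxifen was injected at 0.167 mg per day for 3 days and atria were taken 1 week later. The labels call the strain a mix, give the age as 8 to 10 weeks where the extraction text gives 6 to 8, and name the control genotype only as control. Whether these control mice carried the Cre is thus not given per sample. The published study of left atria in this model states that its controls carried the R26 Cre. The same tamoxifen dose and timing are listed for control and mutant libraries. The labels do not state whether a library came from 1 mouse, so p-values measure the spread between these libraries.

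Library totals ran from 5703775 to 7095141 reads, and the ribosomal RNA gene Rn45s took 38.9% of mutant library M3 against 0.268% to 1.49% of the other 9. Tbx5 itself went against the labels: it stood at 205 ± 17.8 CPM (counts scaled to a common library size of 1e6; SD, n = 4) in the libraries labelled control and 394 ± 83.3 CPM (n = 6) in those labelled mutant. Its log2 fold change was 0.94 (SE 0.15, edgeR adjusted p = 0.000495), and a count over the whole gene cannot show whether exon 3 is missing. Ryr2 and Sln, calcium-handling genes known to depend on Tbx5 in the atria, were lower in the libraries labelled mutant, with log2 fold changes of -1.65 and -0.98. Both control libraries labelled male held 7850 or more reads of Xist, the RNA of the inactive X chromosome, and 0 reads of the Y-linked Ddx3y, and both labelled female held 14 or fewer Xist reads and at least 1124 of Ddx3y. Libraries are named below by their labels. The label of atrial tissue was matched by high counts of the atrial peptide gene Nppa, at 26827 ± 1750 CPM in controls and 17114 ± 5453 CPM in mutants. Nppa was thus lower in mutants (log2 fold change -0.65, edgeR adjusted p = 0.0426). Irx4, the ventricular transcription factor, had 0 or 1 read in each library. The side of the atrium was not checked.

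The atrial Myl7 and the ventricular Myl3 had the largest fall and the largest rise among the 10 members, and the 250 bases before their RefSeq start sites (build GRCm38.p6) are shown with the only motif found in either. The Myl7 stretch is chr11:5898783-5899032 on the reverse strand and that of Myl3 is chr9:110763428-110763677 on the forward strand, both printed 5′ to 3′ along the gene, with a CArG box, the 10-base motif bound by serum response factor, in capitals.
Myl7: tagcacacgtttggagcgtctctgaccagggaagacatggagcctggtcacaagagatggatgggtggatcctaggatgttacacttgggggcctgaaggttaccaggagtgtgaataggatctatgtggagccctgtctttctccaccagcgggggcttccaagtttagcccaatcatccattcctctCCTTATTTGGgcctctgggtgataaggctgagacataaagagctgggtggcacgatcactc
Myl3: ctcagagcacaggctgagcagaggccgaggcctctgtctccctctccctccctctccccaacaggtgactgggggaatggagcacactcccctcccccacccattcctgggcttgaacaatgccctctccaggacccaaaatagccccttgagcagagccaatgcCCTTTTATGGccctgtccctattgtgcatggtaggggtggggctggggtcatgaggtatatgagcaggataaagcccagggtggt
The box lay 61 to 52 bases before the start of Myl7 and 85 to 76 bases before that of Myl3, and Myl9 held one at 161 to 152 bases. Among all 32851 promoters of this length, 1.47% held a CArG box on either strand. Other motifs were searched on both strands: T-box AGGTGTNA, its core GGTGTNA, the MEF2 motif, and for GATA factors the letters AGATAAG, found in 2.68%, 8.61%, 2.92% and 2.74% of promoters. The T-box core is contained in the longer T-box motif. Among the 10 members the T-box core matched 1 window, at 126 to 120 bases before the first RefSeq start of Myl2. The GATA motif matched 1, that of Mylk3. Both Myl2 windows, ending at chr5:122092723 and chr5:122093188, lie upstream of the GENCODE M21 start of the gene at chr5:122100951. The bases just before that GENCODE start were not searched. No searched motif matched in the windows of Myh6, Myh7, Myh7b, Myl1 or Myl4.

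In the libraries labelled Tbx5 mutant the light chains changed more than the main heavy chain. The atrial regulatory chain Myl7 fell 6.64-fold and the atrial essential chain Myl4 fell 1.36-fold. The ventricular chains rose, Myl3 by 15.2-fold and Myl2 by 4.28-fold, and the essential chain Myl1 rose 2.49-fold. The minor heavy chain Myh7b and the smooth muscle regulatory chain Myl9 rose by 2.90-fold and 1.69-fold. Myh6, Myh7 and Mylk3 did not pass the test.

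In counts, 5 of the 10 members were higher and 2 lower at an edgeR adjusted p under 0.05, a threshold that 31.3% of all tested genes passed, 16.3% higher and 15.0% lower. With a fold change over 1.5 as well and a control mean above 1 in the normalized signal, 5 members were higher and 1 lower, against 8.50% and 7.16% of tested genes (15.7% in either direction). Every mutant library lay beyond every control library for 5 members, as for 22.7% of tested genes: Myh7b, Myl1 and Myl3 were higher, and Myl4 and Myl7 lower. The median log2 fold change was 0.84 over the 10 members and -0.00495 over all genes tested. In RNA from whole tissue, fewer cells of a type and less RNA per cell cannot be told apart.

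**Figure D1:**
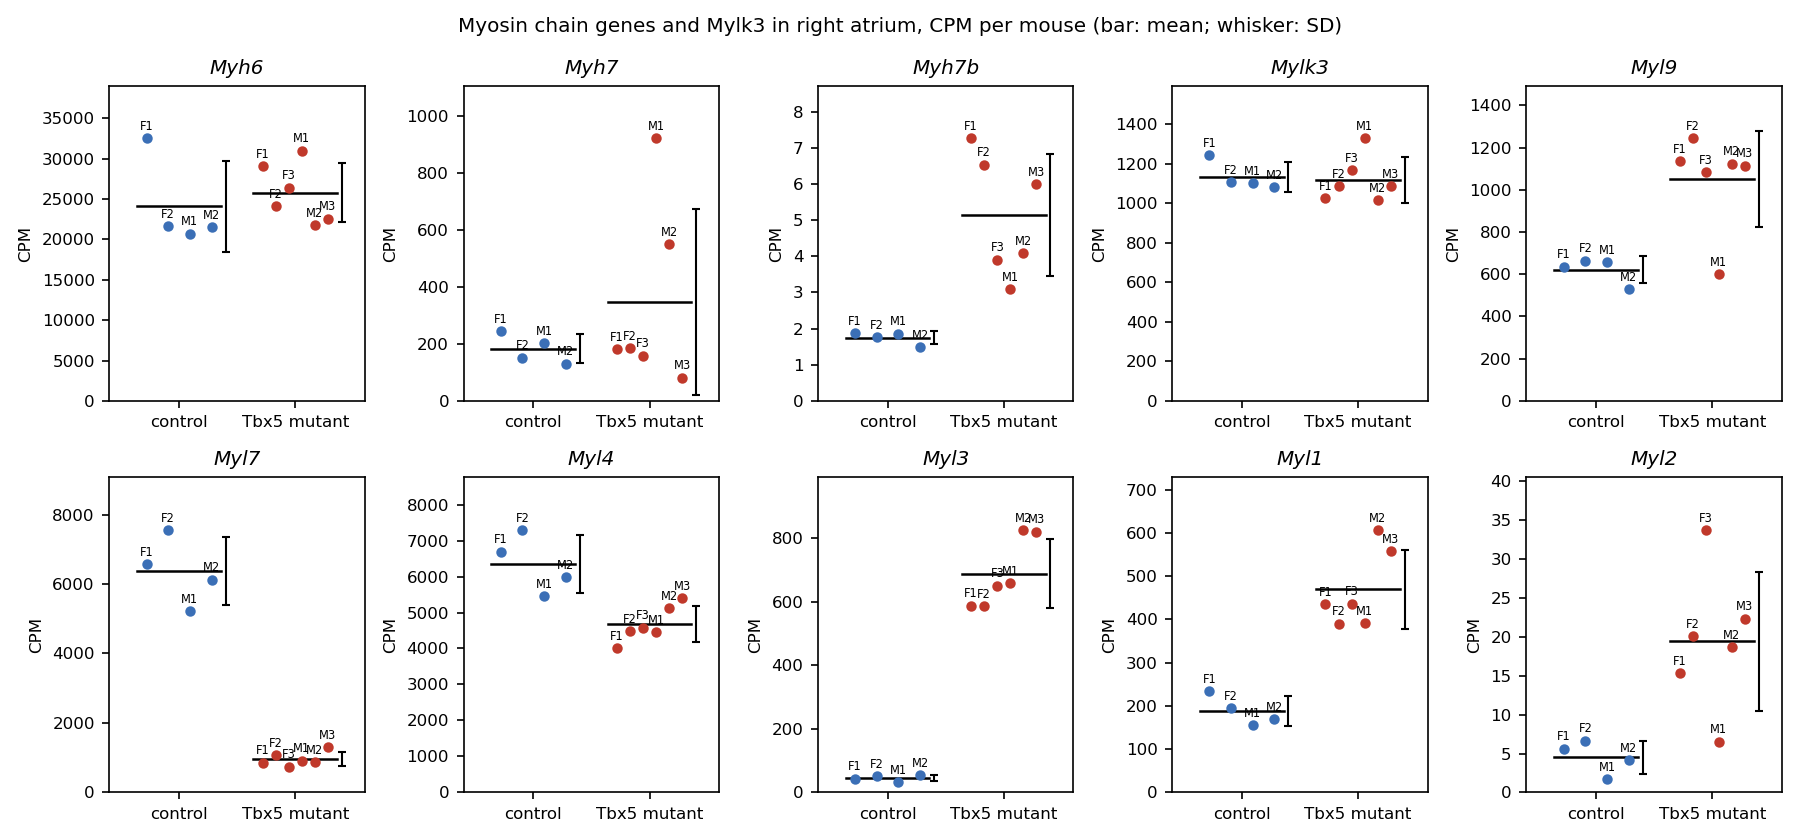
Level of each gene in CPM (linear axes from 0, a different range in each panel) in the 4 control and 6 Tbx5 mutant libraries, each point 1 library marked with its label, with the mean as a bar and the SD as a whisker. Myl7 fell from a control mean of 6372 to 960 CPM and Myl3 rose from 45.4 to 688 CPM, while Myh7 was high in mutant libraries M1 and M2.

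Among the heavy chains Myh6 supplied nearly all reads. Its level in the control libraries M1, M2, F1 and F2 was 20727, 21503, 32508 and 21669 CPM. The 6 mutant libraries ran from 21743 through a median of 25264 to 30988 CPM. These ranges overlapped, with control F1 above all other libraries. Myh6 had a log2 fold change of 0.10 (95% interval -0.29 to 0.49, edgeR adjusted p = 0.711).

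Myh7, the beta chain that rises in the stressed ventricle of rodents, differed more within the mutant group than between the groups. Control libraries M1, M2, F1 and F2 stood at 203, 131, 245 and 152 CPM. Mutant libraries had a lowest value of 81.4, a median of 184 and a highest of 921 CPM. The 2 high values were mutant M1 (921 CPM) and mutant M2 (549 CPM), and the other 4 mutant libraries lay between 81.4 and 186 CPM, inside or below the control range. Myh7 thus had a log2 fold change of 0.92 (SE 0.54, 95% interval -0.23 to 2.08, edgeR adjusted p = 0.208). Without mutant M1 the fit gave a log2 fold change of 0.33 (adjusted p = 0.554), and without mutant M2 it gave 0.75 (adjusted p = 0.335).

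Per kilobase of transcript, Myh6 made up 99.0% to 99.4% of the 3 heavy chains in the control libraries and 97.2% to 99.6% in the mutant libraries. Reads of Myh7 per 100 reads of Myh6 were 0.980, 0.610, 0.753 and 0.702 in controls M1, M2, F1 and F2. In the mutants they ran from 0.361 through a median of 0.699 to 2.97, with 2.97 in M1 and 2.53 in M2. The groups overlapped, and the log2 ratios differed by 0.36 (two-sided exact permutation test over the 210 splits of 4 against 6 libraries, p = 0.59, adjusted over 6 ratios 0.59). Myh6 and Myh7 are close copies: 22.2% and 21.8% of their 51-base windows, the length of the reads, occur also in another gene, mainly in each other, so the split of reads between them is uncertain. Annotated antisense genes overlap both loci, and the strand setting of the counting is not given in the sources used here.

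Myh7b, a slow heavy chain gene whose RNA is present in the heart at low level, was counted in 9 to 13 reads per control library and 18 to 49 reads per mutant library. Control levels were 1.86, 1.49, 1.88 and 1.76 CPM in M1, M2, F1 and F2. Mutant levels ran from 3.09 through 5.03 to 7.26 CPM. The lowest mutant library thus lay above the highest control, and the log2 fold change was 1.54 (SE 0.28, edgeR adjusted p = 0.00107). Its reads per 100 of Myh6 rose from 0.00579 to 0.00896 in controls to 0.00996 to 0.0271 in mutants, 2.61-fold (exact permutation p = 0.00952, adjusted 0.0114). Part of Myh7b lies opposite the gene Trpc4ap, whose reads could be counted with it if strand was not used. The same holds for Myl3, opposite Pth1r, for Myl2, opposite Ccdc63, and for Myl4 and Mylk3, which have antisense genes annotated opposite them.

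Among the essential light chains 1 fell and 2 rose. Myl4, the atrial essential chain, stood at 5450, 5989, 6693 and 7293 CPM in controls M1, M2, F1 and F2. Mutant libraries ran from 4010 through 4531 to 5395 CPM. All 6 were below all 4 controls, although mutant M3 at 5395 CPM was close to control M1 at 5450 CPM. Myl4 had a log2 fold change of -0.44 (SE 0.13, edgeR adjusted p = 0.0217), a fold of 1.36 that does not reach 1.5. It lost significance without control F1 (adjusted p = 0.0602), without control F2 (adjusted p = 0.0857) and without mutant F2 (adjusted p = 0.0516) in the same edgeR test.

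Myl3, the essential chain of ventricle and slow skeletal muscle, showed the largest change of the set and ranked 5 among 13084 genes by p. Control libraries M1, M2, F1 and F2 held 33.3, 53.6, 43.6 and 51.0 CPM. Mutant libraries ran from 586 through 655 to 826 CPM, far above every control. This gave a log2 fold change of 3.92 (SE 0.17, edgeR adjusted p = 6.13e-09). Within the libraries, Myl3 gave 0.611, 0.895, 0.651 and 0.700 reads per 100 of Myl4 in controls M1, M2, F1 and F2. In mutants it gave 13.1 to 16.2 with a median of 14.7. This ratio rose 20.7-fold, a log2 difference of 4.37 (exact permutation p = 0.00952, the smallest that 210 splits allow, adjusted over 6 ratios 0.0114).

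Myl1, the essential chain of fast skeletal muscle, was present in the control atria at 155, 170, 235 and 194 CPM in M1, M2, F1 and F2. It reached 390 CPM in the lowest mutant library, 436 at the median and 607 in the highest. No mutant library fell within the control range. The log2 fold change was 1.32 (SE 0.16, edgeR adjusted p = 4.98e-05). Reads of Myl1 per 100 of Myl4 went from 2.66 to 3.51 in controls to 8.69 to 11.9 in mutants, 3.38-fold higher (exact permutation p = 0.00952, adjusted 0.0114). For 23.2% of its 51-base windows Myl1 shares sequence with the pseudogene Mylf-ps, so its counts carry that uncertainty.

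On a per-length scale, which allows levels of different genes to be compared, Myl4 remained the main essential chain. It made up 96.4% to 97.1% of CPM per kilobase over Myl1, Myl3 and Myl4 in controls and 79.0% to 82.8% in mutants. Myl3 went from 0.596% to 0.871% of that pool in controls to 10.9% to 12.8% in mutants, and Myl1 from 2.25% to 2.95% to 6.24% to 8.17%. In mutants Myl3 was above Myl1 per length, at 734 ± 116 against 434 ± 84.0 CPM per kilobase (SD, n = 6), and in controls it was below, at 48.4 ± 9.72 against 174 ± 32.3 (n = 4). These shares follow from the levels above and were given no test of their own.

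**Figure D2:**
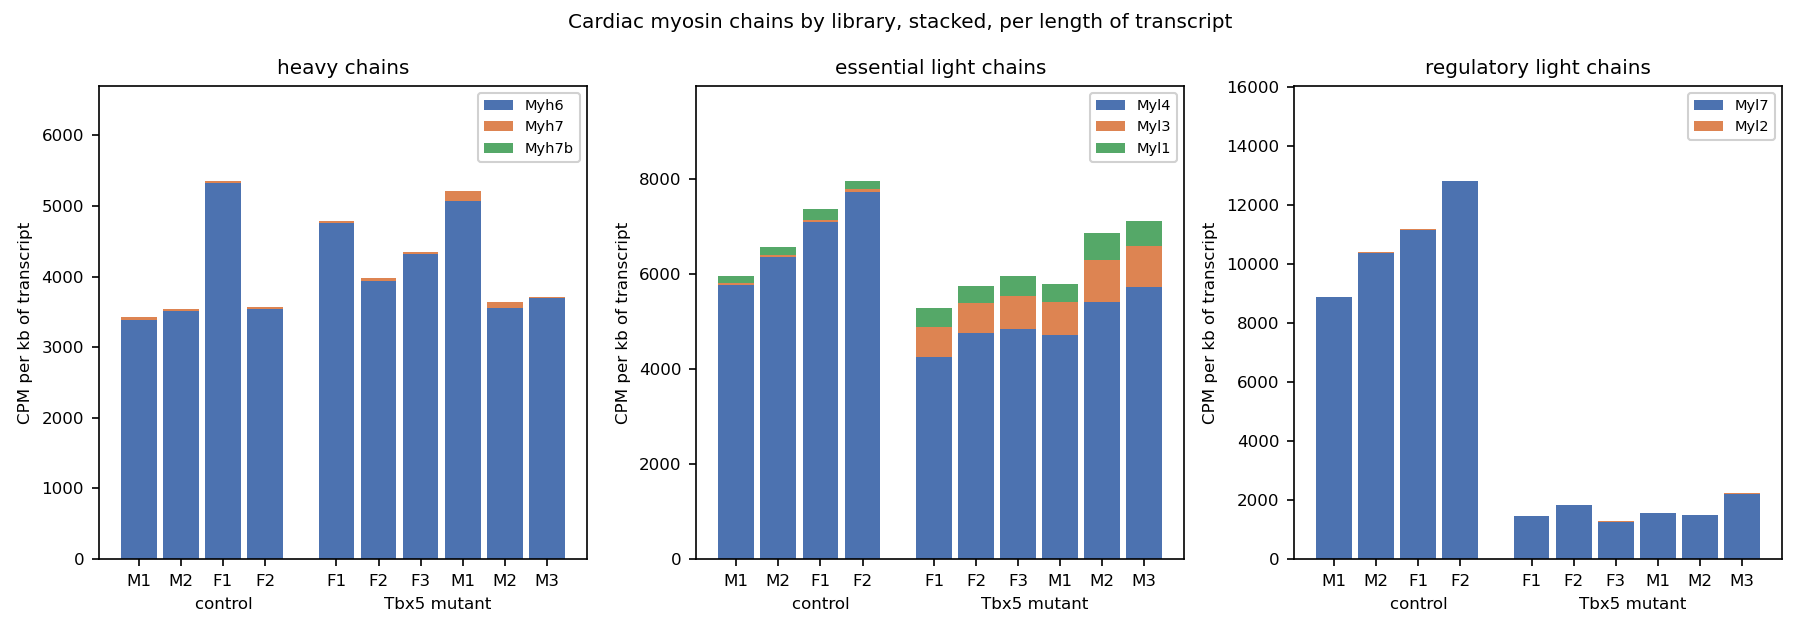
Stacked level of the heavy, essential and regulatory chains in CPM per kilobase of transcript for each of the 4 control and 6 Tbx5 mutant libraries, on linear axes from 0. Myl4 made up 96.4% to 97.1% of the essential pool in controls and 79.0% to 82.8% in mutants, and the regulatory pool, here Myl2 and Myl7 without Myl9, was lower in each mutant library than in each control.

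The regulatory light chains showed the largest fall. Myl7, the atrial regulatory chain, stood at 5226, 6124, 6581 and 7556 CPM in controls M1, M2, F1 and F2. Mutant libraries ran from 738 through 895 to 1306 CPM. Every mutant library was far below the lowest control, and the log2 fold change was -2.73 (SE 0.17, edgeR adjusted p = 9.36e-08), rank 21 of all tested genes by p. Reads of Myl7 per read of Myl4, the other atrial light chain, were 0.959 to 1.04 in controls and 0.161 to 0.242 in mutants, a ratio 4.92-fold lower (log2 difference -2.30, exact permutation p = 0.00952, adjusted 0.0114).

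Myl2, the ventricular regulatory chain, was nearly absent from the control libraries, with 12, 25, 36 and 49 reads in M1, M2, F1 and F2, or 1.71, 4.14, 5.64 and 6.63 CPM. Mutant libraries ran from 6.51 through 19.4 to 33.7 CPM. The groups overlapped only through mutant M1 at 6.51 CPM, below control F2 at 6.63 CPM. The log2 fold change was 2.10 (SE 0.40, edgeR adjusted p = 0.00156). Set against Myl7, its reads went from 0.0328 to 0.0878 per 100 in controls to 0.712 to 4.57 per 100 in mutants, and the groups did not overlap (28.9-fold, exact permutation p = 0.00952, adjusted 0.0114).

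Myl2 remained a small part of the regulatory chain level. Per kilobase, Myl7 was still 97.1% to 99.5% of the sum of Myl2 and Myl7 in mutants, and Myl2 was 0.0218% to 0.0582% of it in controls and 0.470% to 2.94% in mutants. Their summed level was 8860 to 12815 CPM per kilobase in controls and 1288 to 2239 in mutants. Over the same libraries the essential pool was 5958 to 7968 and 5282 to 7112 CPM per kilobase, and the heavy chain pool 3424 to 5357 and 3646 to 5218, ranges that overlapped in both cases. Essential over regulatory chain level therefore moved from 0.622 to 0.673 in controls to 3.12 to 4.62 in mutants, and regulatory over heavy chain level from 2.08 to 3.59 to 0.296 to 0.604. With Myl9 counted in the regulatory pool, essential over regulatory level was 0.594 to 0.631 in controls and 1.95 to 2.77 in mutants. These pools were compared after their genes' values were seen and are a description. They were not corrected for the trend on transcript length given below.

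**Figure D3:**
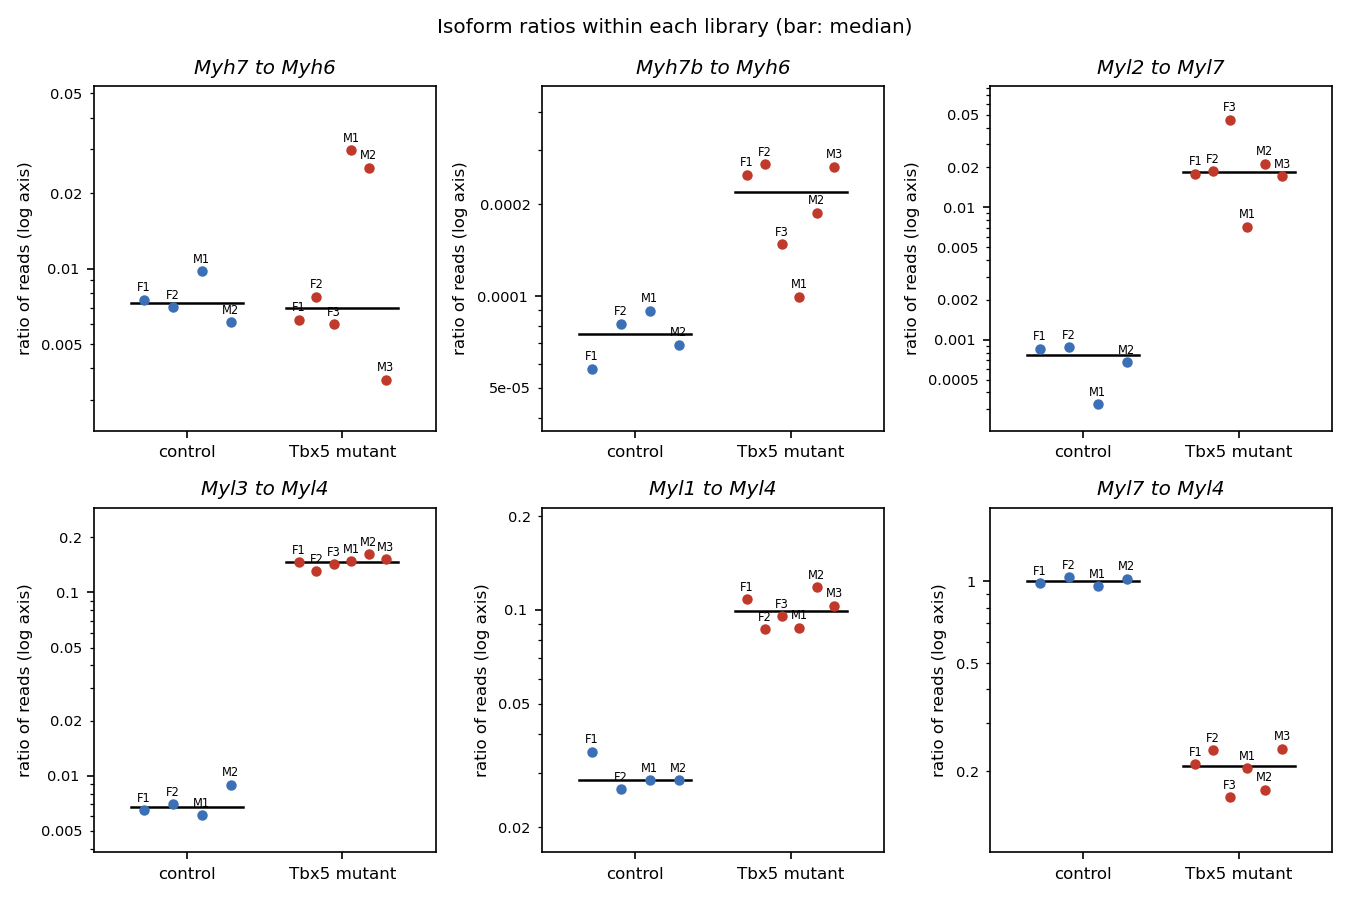
Reads of 1 isoform divided by reads of another within each library, on log axes, for the 6 ratios in the 4 control and 6 Tbx5 mutant libraries, with the median as a bar. In 5 ratios the groups do not overlap, with Myl7 to Myl4 lower and the other 4 higher in mutants, and Myh7 to Myh6 overlaps with 2 high mutant libraries.

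Myl9, the regulatory chain of smooth muscle and non-muscle myosin, stood at 659, 531, 636 and 664 CPM in controls M1, M2, F1 and F2. Mutant libraries ran from 599 through 1119 to 1243 CPM. Mutant M1, at 599 CPM, lay inside the control range, and the other 5 mutant libraries lay at 1083 CPM or above. The log2 fold change was 0.75 (SE 0.17, edgeR adjusted p = 0.00497). Mutant M1 was also the lowest mutant library in the summed level of 12 smooth muscle and pericyte markers, at 2133 CPM against 2754 in the next. That sum was 1380 to 1646 CPM in controls and 2133 to 3091 CPM in mutants, and Des, which cardiomyocytes also make, took 58.4% to 73.6% of it. Without Des it was 517 to 583 CPM in controls and 593 to 1043 CPM in mutants, with mutant M1 again lowest at 593 CPM.

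Of those 12 markers 5 rose, none fell and 7 did not pass: Acta2 and Tagln, the smooth muscle actin and transgelin, by 1.98 and 2.01 on the log2 scale, Des (desmin) by 0.99, and Cspg4 and Pdgfrb, genes of pericytes, by 0.51 and 0.41. The edgeR adjusted p-values of these 5 lay between 6.95e-05 and 0.0149. Of all tested genes 16.3% rose and 15.0% fell. Of the other 7 markers, Cnn1, Lmod1 and Notch3 had log2 fold changes of 0.87, 0.42 and 0.28. Those of Smtn, Synpo2, Rgs5 and Kcnj8 were -0.13, -0.16, -0.22 and -0.27. The contractile marker Myh11 was at 9.93 ± 1.42 CPM in controls and 11.5 ± 5.06 in mutants and did not pass (adjusted p = 0.552). The median log2 fold change of the 12 was 0.42. The part of smooth muscle cells in the change of Myl9 was not tested.

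Mylk3, whose protein phosphorylates the cardiac regulatory chains, stood at 1102, 1083, 1245 and 1107 CPM in controls M1, M2, F1 and F2. Mutant libraries ran from 1015 through 1086 to 1328 CPM. The ranges overlapped, with mutants F1 and M2 below all controls and mutant M1 above them. The log2 fold change was -0.02 (95% interval -0.25 to 0.21, edgeR adjusted p = 0.904), and its sign changed with scaling and with the libraries used.

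Other genes that act on the regulatory chains were mixed, with 1 of 7 tested higher and 3 lower. Of all tested genes 16.3% were higher and 15.0% lower at that threshold, the share to set beside each list here. Mylk4, a myosin light chain kinase of heart muscle, fell from 32.6 ± 9.62 to 7.82 ± 2.38 CPM, a log2 fold change of -2.05 (SE 0.23, edgeR adjusted p = 3.19e-05), with no mutant library in the control range. Mylk, the smooth muscle and non-muscle kinase, rose by 0.61 (adjusted p = 0.00895). Camk2d, the main cardiac calcium/calmodulin kinase, fell by 0.44 on the log2 scale and Ppp1r12b, a myosin phosphatase targeting subunit, fell by 0.33 (adjusted p = 0.00285 and 0.0166). Ppp1r12b did not pass once each library's trend on transcript length was removed. The phosphatase catalytic subunit Ppp1cb had a log2 fold change of -0.20 (adjusted p = 0.0941).

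Of the 10 other conventional heavy chains 5 were tested, and 2 of them rose. Myh8, the perinatal skeletal heavy chain, went from 0.912 ± 0.450 to 6.53 ± 1.23 CPM, a log2 fold change of 2.79 (SE 0.29, edgeR adjusted p = 1.47e-05). The non-muscle chain Myh9 rose by 0.53 (adjusted p = 0.00243), whereas Myh10 and Myh14 had log2 fold changes of -0.11 and -0.10 and did not pass. Adult and embryonic skeletal chains Myh1, Myh2, Myh3 and Myh4 were not tested, with 0 to 3 reads per library. Among 4 of 6 other light chains that were tested, Myl6 and Myl12a, chains of smooth and non-muscle myosin, rose by 0.88 and 0.60 (adjusted p = 0.000150 and 0.00773), and Mylpf, the fast skeletal regulatory chain, had 1 to 8 reads per library.

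Thick filament partners moved in both directions, 5 of 15 tested higher and 4 lower, with a median log2 fold change of 0.18. The shares over all tested genes were 16.3% higher and 15.0% lower. Mybpc3, the cardiac myosin-binding protein C, rose from 1750 ± 274 to 4866 ± 157 CPM (log2 fold change 1.48, SE 0.13, edgeR adjusted p = 3.89e-06). Mybphl, a related protein of atrial muscle, fell from 672 ± 131 to 245 ± 52.1 CPM (-1.46, SE 0.17, adjusted p = 3.36e-05). The M-band genes Myom2 and Myom1 rose by 0.72 and 0.51, Mybpc2, the fast skeletal form of protein C, rose by 0.87, and Obsl1, a cytoskeletal adaptor gene, fell by 0.50 on the log2 scale. Titin (Ttn) had a log2 fold change of -0.67 and did not pass (adjusted p = 0.146).

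**Figure D4:**
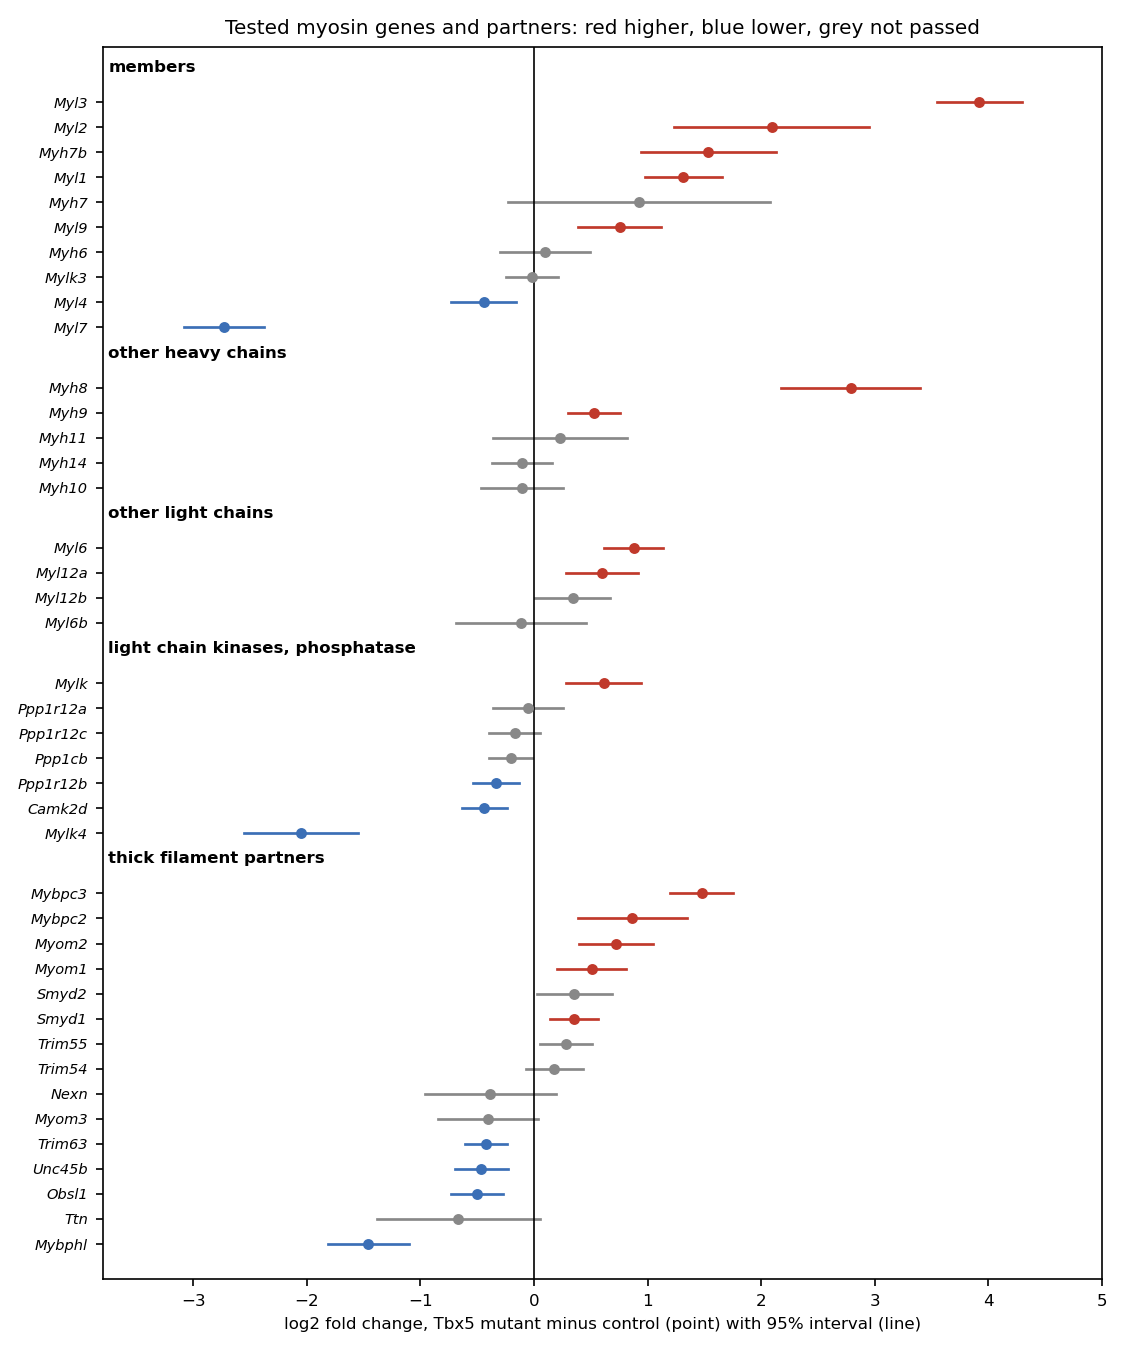
Log2 fold change (Tbx5 mutant minus control, points) with its 95% interval (lines) from the edgeR fit for the 10 members and the tested genes of 4 related lists, red where higher and blue where lower at an adjusted p under 0.05, grey otherwise. Myl3 (3.92) and Myl7 (-2.73) lie at the ends of the member set, and the Mylk3 interval covers 0.

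Light chain changes were set beside other genes of atrium and ventricle. Of 11 atrium-enriched genes 8 fell and none rose, with a median log2 fold change of -0.70. Of all tested genes 15.0% fell and 16.3% rose. Among them Stard10 fell by 2.29, the potassium channel gene Kcnj3 fell by 2.14, its partner Kcnj5 fell by 2.06 and the peptide-processing enzyme Pam fell by 1.03 on the log2 scale (edgeR adjusted p between 4.36e-07 and 5.63e-05). The calcium pump regulator Sln fell by 0.98 and the secreted protein gene Dkk3 fell by 0.70. The summed level of the 11 ran from 44305 to 48638 CPM in controls and from 20629 to 35316 CPM in mutants.

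Of 7 tested ventricle-enriched genes besides the light chains, 3 rose and 1 fell, with a median of -0.04, where 16.3% of all tested genes rose and 15.0% fell. Kcne1, a potassium channel subunit, Pln, which encodes the calcium pump inhibitor phospholamban, and the lipase gene Lpl rose by 3.16, 0.95 and 0.70, and Kcnv2 fell by 2.28 on the log2 scale. Their list sum was 3004 to 3409 CPM in controls and 4948 to 6405 CPM in mutants, of which Pln and Lpl took 98.8% to 99.6%. Without that pair it was 31.8 to 40.7 CPM in controls and 23.7 to 33.6 CPM in mutants. Of the transcription factors in that list, Irx4 had at most 1 read in any library. Hey2 was at 5.11 ± 0.822 CPM in controls and 4.17 ± 1.12 in mutants (edgeR adjusted p = 0.292). Irx5 was at 1.85 ± 0.427 and 1.79 ± 0.427 CPM (adjusted p = 0.949). Irx3, not tested, was at 1.82 ± 0.674 and 1.15 ± 0.390 CPM. Myl2 reached no more than 33.7 CPM. The part of ventricular tissue in the rise of Myl3 and Myl2 was not tested.

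Skeletal muscle markers were examined because Myl1, Myl3, Myh7b and Myh8 are used there too. Of 9 tested 5 rose and 1 fell, with a median of 0.59, where 16.3% of all tested genes rose and 15.0% fell. Acta1, the skeletal actin, the calcium store protein gene Casq1 and the slow troponins Tnni1 and Tnnt1 rose by 4.07, 3.31, 1.93 and 1.09, the enolase Eno3 rose by 0.59, and the fast calcium pump Atp2a1 fell by 1.18 on the log2 scale. The muscle-determining factors Myf6 and Myog had 0 and at most 1 read, and the fast troponin gene Tnnc2 at most 1. The list sum was 584 to 778 CPM in controls and 944 to 1285 CPM in mutants, of which Eno3 took 87.6% to 95.9%. Without Eno3 it was 31.9 to 45.3 CPM in controls and 99.7 to 159 CPM in mutants. Casq1 alone was at 6.47 ± 3.73 CPM in controls and 64.4 ± 22.8 in mutants. Actn3, Tnnt3 and Pvalb did not pass, with log2 fold changes of -0.10, 0.02 and -0.75. Tnni2, not tested, was at 1.57 ± 0.389 CPM in controls and 0.687 ± 0.423 in mutants. The part of skeletal muscle cells in these changes was not tested.

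Cardiac thin filament and other cardiomyocyte genes rose in the main, 8 of 11 higher and 1 lower, with a median of 0.53. Of all tested genes 16.3% were higher and 15.0% lower, the shares to set beside this list and the fibroblast markers. Troponins Tnnc1 and Tnnt2 rose by 1.22 and 1.12, the cardiac actin Actc1 by 0.90, tropomyosin Tpm1 by 0.82 and the creatine kinase Ckm by 0.58, while Ryr2, the calcium release channel, fell by 1.65 on the log2 scale. Tnni3 was at 3462 ± 379 CPM in controls and 3545 ± 468 in mutants (edgeR adjusted p = 0.868). Of 8 fibroblast markers 4 rose and 1 fell, with Postn up by 2.33, the collagens Col1a1, Col3a1 and Col1a2 by 1.31, 1.27 and 1.19, and Pdgfra down to 156 ± 21.7 from 207 ± 23.2 CPM. Dcn was at 1885 ± 139 CPM in controls and 1870 ± 213 in mutants (adjusted p = 0.952), and Tcf21 and Lum did not pass. The sum of the 8 was 3872 to 5205 CPM in controls and 7073 to 10272 CPM in mutants. Col3a1 alone was at 1433 ± 386 and 3459 ± 758 CPM. The part of fibroblast number in these changes was not tested. Of 6 adipocyte markers only Fabp4 was tested, and it rose by 0.73 (adjusted p = 0.00442).

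Whether the members' changes differed between the labelled sexes was tested with an interaction term. None of the 10 members passed in edgeR, 2 of them (Myl1 and Myl4) had an unadjusted p under 0.05, and 0.290% of tested genes passed. The largest estimate was that of Myh7, 1.81 higher in log2 fold change in the mice labelled male (SE 0.88, adjusted p = 0.505), where mutants M1 and M2 hold the high values. Without mutant M3 it was 2.32 (SE 0.38, edgeR adjusted p = 0.0323). Myl7 had log2 fold changes of -2.46 in libraries labelled male and -2.99 in those labelled female, and Myl3 of 4.15 and 3.68, each past the threshold in the edgeR fit within that sex label. By Xist and Ddx3y, the male-labelled contrast sets mutants with Ddx3y reads against controls with Xist reads, and the female-labelled contrast the reverse. On that reading the labelled interaction adds up the sex differences of both groups. It then cannot show whether the change with genotype differs between the sexes. With sex read from those genes instead, no member passed either in edgeR, and 1 (Myl2) had an unadjusted p under 0.05.

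Across the genes, log2 fold change fell with transcript length (Spearman rho = -0.33 over 12951 genes, which are not independent replicates), and light chain transcripts are short. Within a library, deviations of log2 CPM from each gene's mean correlated with length at 0.130 to 0.341 in controls and -0.387 to 0.0420 in mutants. This trend thus separated the groups, and the per-length pools and isoform ratios were not corrected for it. With each library's trend on length removed, Myl3 had a log2 fold change of 3.68, Myl7 of -3.04, Myl1 of 1.09, Myl2 of 1.85 and Myl9 of 0.53, all at an adjusted p still under 0.05 in edgeR, although Myl9 then fell short of the 1.5-fold threshold. Myl4 then stood at -0.69 and passed the 1.5-fold threshold as well (adjusted p = 0.000255).

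Within the groups, some members varied together from library to library. The deviations of log2 CPM from the group means correlated at r = 0.77 for Myl3 with Myl4 and 0.76 for Myl1 with Myl4 over the 10 libraries, and at 0.86 for Myl9 with the smooth muscle actin Acta2. Those of Myl7 were most like 2310061C15Rik (r = 0.97), Gpn3 (0.94), Sh3tc2 (0.93), Flrt1 (0.93) and Tex261 (0.92) among 9981 genes, of which Flrt1 also fell between the groups, by 2.16 on the log2 scale. Those of Myl2 were most like Nat15 (0.97), Timp3 (0.95), Lancl1 (0.95), Dgcr2 (0.94) and Srp68 (0.93). Between the groups Srp68 fell, by 0.47 on the log2 scale (edgeR adjusted p = 0.0107), where Myl2 rose. Those of Ttn correlated at -0.66 with Myl4, -0.63 with Myl3 and -0.46 with Myl1. The points share each library's depth, scaling and trend on transcript length, and these values are descriptions.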

How the data were processed

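Right atrial RNA was sequenced as single-end reads in 10 libraries, 4 control and 6 Tbx5 mutant, grouped by their genotype labels. Both an mRNA kit and ribosomal depletion are named in the labels. The submitters' processing notes name FastQC, TopHat2 2.0.11, featureCounts, DESeq2 and the build mm10, and the annotation, strand setting and parameters are not given in the sources used here. The deposited table holds whole-number counts per gene, made by the authors without normalization, and a normalized signal, which the authors obtained by dividing counts by a DESeq2 size factor per library. Its other columns, the authors' own comparison as deposited (log2 fold change, fold ratio, Wald score, p-value and adjusted p-value), were not used. Every per-library column belonged to 1 of the 10 samples.

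Counts were analysed in R 4.3.3 with edgeR 4.0.16: expression filter, TMM scaling and a quasi-likelihood fit with genotype as its only term, with Benjamini-Hochberg adjustment over the 13084 genes tested. Passed means an adjusted p under 0.05. Called means also a fold change over 1.5 and a control mean of the deposited signal over 1. CPM are counts scaled to a TMM library size of 1e6. Isoform ratios are ratios of counts within a library, compared on the log2 scale by two-sided exact permutation over 210 splits (Python 3.11.15, scipy 1.17.1). Transcript lengths came from the longest GENCODE M21 transcript per symbol (22852 of 23337 genes, 1899 of them by RefSeq synonym), promoters from RefSeq on GRCm38.p6, which is the mm10 sequence. The detection floor of 3 counts corresponds to 4.23e-05% to 5.26e-05% of a library and, without molecular identifiers, covers counting error only. The fits were tested on simulated data.

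The members and lists were chosen with earlier results of these data known. A gene of the thick filament list is not reported here and was left out of its counts. Named genes were the members, up to 6 passing genes per list by size of log2 fold change, Tbx5, Xist, Ddx3y and Rn45s, and the 5 genes most like Myl7 and Myl2. Other genes named (Ttn, Myh11, Myh10, Myh14, Ppp1cb, Nppa, Hey2, Tnni3, Dcn, Tcf21, Lum and those with few reads) were chosen after their values were seen. So were Cnn1, Lmod1, Notch3, Smtn, Synpo2, Rgs5, Kcnj8, Actn3, Tnnt3, Pvalb, Irx3 and Irx5. Alternatives were other filters on low counts, RLE and upper-quartile scaling, DESeq2 1.42.0, limma 3.58.1 on log2 CPM, sex as a covariate, a replicate block, each labelled sex alone, counts without Rn45s, removal of trends on transcript length or GC content, other thresholds, reads per base, percent shares, and each library left out in turn. The authors' size factors, list sums without their most abundant genes and a regulatory pool with Myl9 were added after the data were seen.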

Additional observations from a re-analysis of the deposited data

Results flagged for a closer look

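In each group of 4 or 6 libraries, the lowest or highest value was marked when its gap to the nearest other library was large for the range of the group (Dixon's criterion at 95%). Of 60 groups of values examined, 8 were marked, and chance marks about 1 in 20 groups, here 3. Myh6 was marked in control F1, at 32508 CPM against 21669 in the next control, and so was Mylk3 in the same library, at 1245 CPM against 1107. Myl9 was marked low in mutant M1, at 599 CPM against 1083, as was the summed level of smooth muscle markers in that library, at 2133 CPM against 2754. The ratio of Myl2 to Myl7 was marked high in mutant F3, at 0.0457 against 0.0213. Summed fibroblast and adipocyte markers were marked high in mutant M2, at 10272 CPM against 7922 and 387 CPM against 265. The adipocyte sum was mainly Fabp4, which reached 367 CPM in mutants, and no other marker of that list exceeded 9.03 CPM in a library. The share of Rn45s reads was marked in mutant M3, at 38.9% against 0.582%.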

How the results depend on the processing

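Myl1, Myl2, Myl3 and Myl7 kept their direction and an adjusted p under 0.05 in all 26 alternatives run for each, with log2 fold changes of 0.97 to 1.68, 1.54 to 2.43, 3.67 to 4.15 and -3.04 to -2.46. Myh7b did not pass in the mice labelled male alone (adjusted p = 0.0679 in edgeR), nor did Myl4 (0.565) or Myl9 (0.145), and Myl9 did not pass under the replicate block with a length correction (0.0854). In the male-labelled fit 3 members were higher, 1 was lower, and 3 were called higher. In that fit 1478 of 13112 tested genes were called in either direction. The cause was not tested. Myl4 reached the fold threshold, giving 2 members called lower, with the length trend removed, under the block with a length correction, and in the mice labelled female alone. Genes called in either direction in these fits were, in that order, 1851 of 13084, 1730 of 13084 and 1900 of 13292 tested. Myl9 fell short of the fold threshold with the length trend removed (log2 fold change 0.53), leaving 4 members called higher. With 1 library left out, 1 to 2 members passed lower, the lost one being Myl4. The 937 genes called lower and 1112 called higher became 367 and 539 with a fold over 2, 1967 and 2129 with no fold threshold, and 824 to 1076 and 983 to 1169 with 1 library left out. A mean count of at least 50 left 653 called higher, among fewer genes tested.

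Directions of members that did not pass turned as follows. In the female-labelled fit Myh6 was at -0.032, Myh7 at -0.18 and the log2 ratio of Myh7 to Myh6 differed by -0.14 (exact permutation p = 0.6, where the smallest possible is 0.2). Mylk3 was at 0.0099 with upper-quartile scaling, 0.067 in the male-labelled fit, 0.012 with the length trend removed, and -0.086 to 0.027 with 1 library left out. Per-base and percent-share forms of the ratios kept every call, and no ratio could pass within 1 labelled sex.

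The interaction with labelled sex passed for 38 genes, for 1 with sex read from Xist and Ddx3y, and for 26 to 64 with a mutant library left out (64 without mutant M1), members among them 0 to 1, that 1 being Myh7 without mutant M3. By Xist and Ddx3y, the term with labelled sex adds up sex differences, as given above. Replicate numbers did not pair the libraries: deviations of same-numbered libraries correlated between -0.047 and 0.036. The replicate block gave 1957 called genes against 2049 and changed no member's call, while Ppp1r12b (adjusted p = 0.0518 in edgeR), Pdgfrb (0.0667) and Atp2a1 (0.0641) no longer passed under it. Among genes of the other lists, single libraries decided the edgeR call of Ppp1r12b (adjusted p = 0.0542 without control F1), Pdgfrb (0.0523 without control F1), Atp2a1 (0.0555 without control F2), Myom1 (0.0507 without control M2) and Pdgfra (0.0612 without control M2). Depth limits Myh7b and Myl2, counted in as few as 9 and 12 reads in a control library. The authors' size factors changed no member's call.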
